A study of Mus musculus with 12 samples.

Results

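The genes of the cytosolic ribosomal proteins were followed through an RNA immunoprecipitation with an antibody to CPEB4, a member of a family of RNA-binding proteins that act through elements in 3′ UTRs on poly(A) tails and translation. Members were the rows of a table of counts per 3′ UTR whose gene symbol began with Rpl, Rps or Rplp and a digit, or was Rpsa, without the Rps6k kinases and without names marked as pseudogenes. This gave 87 members among 20586 features, each with 1 feature, of which 52 were large subunit names and 34 small subunit names. The remaining name, Rps19bp1, matched the rule but encodes a protein that binds Rps19 and is no part of the ribosome. A test was possible for 77 members. The other 10 were Rps3a1, Rpl34, Rpl30, Rpl29, Rps28, Rpl39l, Rpl3l, Rps3a3, Rps4l and Rpl10l, which held between 0 and 252 counts over all libraries, and of which Rps4l and Rpl10l had none.

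All libraries were made from 3T3-L1, an immortalised line of mouse preadipocytes, which had been taken to day 8 of adipogenic differentiation. Per the labels, the inducing medium, used up to day 2, held IBMX (0.5 mM), dexamethasone (1 µM), insulin (10 µg/mL) and rosiglitazone (2 µM), and insulin alone was kept from then on. All groups carried the same 24 h exposure to free fatty acids at 500 µM in sum, made of palmitic (300 µM), oleic (100 µM) and linoleic acid (100 µM). Groups were RNA precipitated with the CPEB4 antibody (CPEB4 IP), RNA brought down by control immunoglobulin (IgG IP) and RNA of the lysate (Input), with 4 libraries each. There was no group without fatty acids, so nothing here measures their effect. Per the labels, Input alone was purified for poly(A) RNA, so a difference between a precipitate and Input and the effect of that step cannot be told apart. The labels do not say whether replicates were separate cultures. The p-values therefore reflect the spread between these samples alone, and part or all of it may be technical.

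Total counts ranged over 1114911 to 1159188 for CPEB4 IP, 88013 to 622976 for IgG IP and 858028 to 1578084 for Input. A floor of 3 counts in 1 library stood for 2.36 to 2.84 CPM in CPEB4 IP, 9.09 to 23.7 CPM in IgG IP and 1.95 to 3.04 CPM in Input, where CPM are counts scaled to library size with TMM factors. IgG IP was therefore the group in which members were measured with the least precision. The adipocyte markers Fabp4, Lpl, Adipoq and 7 others summed to 20711 to 23005 CPM in CPEB4 IP, 13621 to 22152 CPM in IgG IP and 11929 to 24274 CPM in Input. Single markers of this list differed in both directions. Lpl averaged 12635 CPM in CPEB4 IP and 8176 CPM in Input, and Fabp4 6155 and 3271 CPM. Adipoq averaged 435 and 1115 CPM, and Cfd 29.9 and 3294 CPM, in the same 2 groups. The 10 fibroblast and preadipocyte markers summed to 206 to 438, 333 to 782 and 1112 to 2058 CPM in the same groups. Vim, which is also among the TOP mRNAs described further on, carried that difference, at 16.5 to 33.8, 50.1 to 149 and 826 to 1639.6 CPM, and the other 9 summed to 189.6 to 405, 239 to 633 and 233 to 626 CPM. Markers of macrophages (at most 391 CPM), endothelium (at most 73.0 CPM) and muscle or neurons (at most 322 CPM) were low beside the adipocyte markers. Of the macrophage list, Adgre1 and Ptprc, which mark macrophages and leukocytes, had no count in Input. The others had counts there: Mertk 326, Lyz1 267, Csf1r 96, Lyz2 44, Cd68 10 and Itgam 4. One feature, the 3′ UTR of Lars2, took 4.60% to 23.7% of counts in CPEB4 IP, 28.6% to 63.9% in IgG IP and 7.79% to 14.1% in Input.

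The mRNAs of ribosomal proteins are abundant in growing cells and have short UTRs at both ends. In mammals they begin with a C at the cap and an unbroken run of pyrimidines, the 5′ terminal oligopyrimidine (TOP) motif, through which their translation is switched with nutrients by the mTOR kinase and the binding protein LARP1. CPEB proteins bind U-rich elements in 3′ UTRs, so what the table could count for most members was a short stretch behind the stop codon.

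Start site sequences from RefSeq (GRCm38.p6) are shown to make the TOP motif visible in members whose precipitation is described below. Each is a window of 30 bases on the strand of the gene, of which 10 lie before the annotated start and 20 follow it. Capitals mark the longest run made of a C and at least 4 further letters that are all C or T. The first 5 are members with a lower level in CPEB4 IP than the IgG control, and the last 3 are members whose CPEB4 IP libraries all lay above the IgG IP libraries.
Rpl35: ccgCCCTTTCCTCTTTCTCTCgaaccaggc
Rpl28: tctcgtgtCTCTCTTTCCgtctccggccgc
Rps9: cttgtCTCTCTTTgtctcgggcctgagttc
Rpsa: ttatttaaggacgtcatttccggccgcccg
Rpl41: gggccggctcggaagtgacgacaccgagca
Rplp2: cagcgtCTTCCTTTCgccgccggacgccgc
Rps27rt: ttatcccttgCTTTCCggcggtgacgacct
Rpl7l1: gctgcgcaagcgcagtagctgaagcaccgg
Such runs stood in both sets, among them Rpl35 with 18 letters and Rplp2 with 9, while the windows of Rpsa, Rpl41 and Rpl7l1 held none. Those 3 windows say only that these letters are not there, since an annotated start can lie beside the start used in a cell. The windows are chr2:39005112-39005141 (minus strand) for Rpl35, chr7:4792955-4792984 (plus) for Rpl28, chr7:3704031-3704060 (plus) for Rps9 and chr9:120127756-120127785 (plus) for Rpsa. They are chr10:128549149-128549178 (minus) for Rpl41, chr7:141447641-141447670 (plus) for Rplp2, chr9:114982720-114982749 (minus) for Rps27rt and chr17:46782637-46782666 (minus) for Rpl7l1.

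Over the 64 members found in the RefSeq table, 13 (20.3%) had the motif with its C exactly at the annotated start, against 3.01% of 27025 genes. A run anywhere in the window stood in 42 members (65.6%), against 39.6% of genes, and a run of at least 8 letters in 22 members (34.4%), against 10.1% of genes. The string CTCTTT, which lies within the runs of Rpl35, Rpl28 and Rps9, was in 7 members (10.9%), against 1.2% of genes. The window, the longer run and this string were chosen after the sequences were seen. The matches describe annotated sequence and not the use of the motif in these cells.

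Ribosomal protein mRNAs took up a far smaller share of both precipitates than of Input. Members held 0.157%, 0.147%, 0.0966% and 0.0894% of the counts in CPEB4 IP replicates 1 to 4, against 0.325%, 0.194%, 0.0815% and 0.0791% in IgG IP and 5.11%, 4.4%, 2.08% and 2.61% in Input. All 8 precipitate libraries lay below every Input library, whereas the precipitates overlapped each other. The least certain share, that of IgG IP replicate 2, had an exact (Clopper-Pearson) 95% binomial interval of 0.166% to 0.226%, which like all intervals and floors here covers counting error only. Shares were higher in replicates 1 and 2 than in replicates 3 and 4 in all 3 groups, and the library numbers in the titles put these pairs in 2 separate sets. With the Lars2 feature left out of the totals, shares were 0.170%, 0.154%, 0.117% and 0.117% in CPEB4 IP, against 0.455%, 0.276%, 0.226% and 0.215% in IgG IP and 5.82%, 5.12%, 2.26% and 2.83% in Input. Counted that way, CPEB4 IP was below IgG IP within every replicate number, and the 2 precipitates no longer overlapped. These are shares of sequenced RNA, so less RNA of the members and more RNA of other genes cannot be told apart, nor can fewer cells and less RNA per cell.

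**Figure D1:**
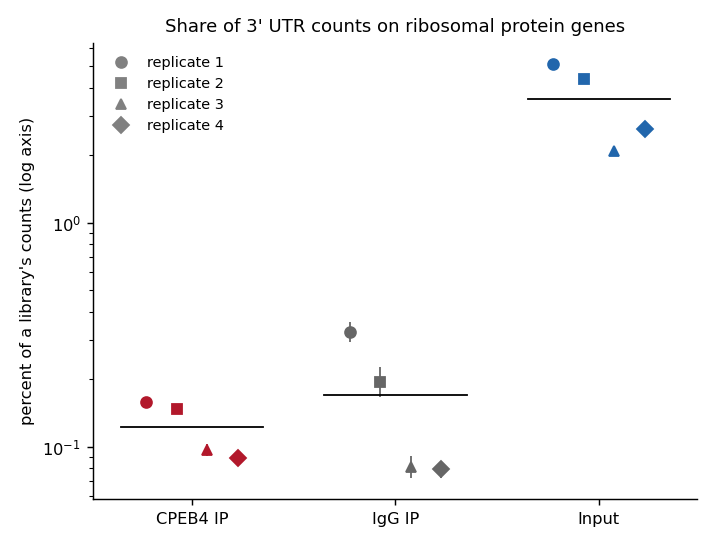
Percent of the counts of each library that fell on the 87 members, on a log axis, with exact 95% binomial intervals (counting error only) as vertical bars and the mean of 4 libraries as a horizontal line. Marker shapes give the replicate. CPEB4 IP (0.0894% to 0.157%) and IgG IP (0.0791% to 0.325%) overlapped, and Input (2.08% to 5.11%) lay above both.

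Setting CPEB4 IP against IgG IP shows which members the antibody recovered beyond what the precipitation itself carried along. No member was higher in CPEB4 IP and 7 were lower by edgeR's quasi-likelihood test at an adjusted p of 0.05 (Benjamini-Hochberg over 8680 tested features), of the 77 tested. The background was 4.57% of all tested features higher and 1.3% lower. This fit did not use the replicate number, and calls with it as a block are given further on. The lower members were 4 of the large and 3 of the small subunit, and 6 of them are described: Rpl41, Rpsa, Rplp1, Rps9, Rpl35 and Rpl28. The median log2 fold change of tested members was -0.73, beside 0.24 for all tested features, and 56 members were below 0 and 21 above it. At an unadjusted p under 0.05, 18 members (23.4%) passed, near the 21.2% of all tested features.

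Rpsa, a small subunit protein related to the laminin receptor (3′ UTR of 875 bases, mm10 chromosome 9, 120131495 to 120132369), had the smallest adjusted p of them. It stood at 16.1, 11.8, 14.0 and 24.6 CPM in CPEB4 IP, against 62.0, 47.3, 72.9 and 93.9 CPM in IgG IP. Every CPEB4 IP library lay below every IgG IP library. By edgeR's quasi-likelihood test the log2 fold change was -2.09 with an SE of 0.36 (adjusted p = 0.00361), a level 4.25-fold lower in CPEB4 IP, on 78 counts against 63 counts over 4 libraries.

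Rpl41, the very short basic protein of the large subunit (273 bases, mm10 chromosome 10, 128548114 to 128548386), was the member with the most counts. It had 71.4, 29.9, 42.1 and 34.1 CPM in CPEB4 IP, against 242, 71.0, 137 and 215 CPM in IgG IP. CPEB4 IP was lower within every replicate number, while CPEB4 IP replicate 1 lay just above IgG IP replicate 2, so the groups overlapped. Its log2 fold change was -1.92 (SE 0.44, adjusted p = 0.017 by edgeR's quasi-likelihood test).

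Rplp1, an acidic protein of the stalk that brings elongation factors to the ribosome (40 bases, mm10 chromosome 9, 61913284 to 61913323), stood at 8.03, 11.8, 12.4 and 7.57 CPM in CPEB4 IP, against 55.8, 15.8, 36.5 and 30.3 CPM in IgG IP. The groups did not overlap, although IgG IP replicate 2 rested on 2 counts. By edgeR's quasi-likelihood test the log2 fold change was -1.79 with an SE of 0.40 (adjusted p = 0.0149).

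Rps9, a small subunit protein near the entry of the mRNA channel (875 bases, mm10 chromosome 7, 3706021 to 3706895), had 17.7, 15.7, 14.8 and 8.52 CPM in CPEB4 IP, against 74.5, 15.8, 50.1 and 42.4 CPM in IgG IP. The groups overlapped through IgG IP replicate 2. The log2 fold change was -1.69 with an SE of 0.46 (adjusted p = 0.0375) by edgeR's quasi-likelihood test.

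Rpl35, a large subunit protein at the exit of the peptide tunnel (36 bases, mm10 chromosome 2, 39001580 to 39001615), had 6.42, 3.15, 3.30 and 4.73 CPM in CPEB4 IP, against 43.4, 31.6, 13.7 and 15.2 CPM in IgG IP. Rpl28, also of the large subunit (55 bases, mm10 chromosome 7, 4794508 to 4794562), had 2.41, 3.93, 1.65 and 0.946 CPM in CPEB4 IP, against 18.6, 23.7, 4.56 and 27.3 CPM in IgG IP. Neither overlapped between the groups. The log2 fold changes were -2.43 for Rpl35 (SE 0.57, adjusted p = 0.0196) and -2.96 for Rpl28 (SE 0.70, adjusted p = 0.0207) by edgeR's quasi-likelihood test. Rpl35 overlaps a feature of Wdr38 on the opposite strand, and whether counting used the strand is not given in the sources used here, so its reads are uncertain in origin.

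The precipitate counts behind these 7 calls were few: from 11 to 214 counts over 4 CPEB4 IP libraries and from 16 to 149 over 4 IgG IP libraries, and single IgG IP libraries held as few as 1 count of Rpl28. The number of lower members moved with the libraries used. It was 0 without replicate 1 or without replicate 2 of every group, 1 without replicate 4 and 7 without replicate 3, where the lower features of the whole table were 0, 5, 12 and 111 of 8680, beside 113 with all libraries. The fits without replicates 1, 2 or 4 therefore called few features of any kind as lower. Leaving out 1 library gave 2 members without CPEB4 IP replicate 1, 1 without CPEB4 IP replicate 2, 4 without CPEB4 IP replicate 4, 3 without IgG IP replicate 1, 4 without IgG IP replicate 4 and 11 without Input replicate 3. Over all features these fits called 31, 21, 58, 77, 39 and 322 as lower. Replicates 1 and 2 alone gave 6 lower members (1.38% of all features), and replicates 3 and 4 alone gave 0, where no feature of the table was called in either direction. In replicates 3 and 4 alone, the 7 members had log2 fold changes from -3.57 (Rpl28) to -1.71 (Rplp1), with adjusted p from 0.139 to 0.268 by edgeR's quasi-likelihood test. Within the 2 sets the median log2 ratio of tested members was -0.74 in replicates 1 and 2 and -0.65 in replicates 3 and 4, beside 0.53 and 0.13 for all tested features.

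Scaling bore on this comparison as well. With DESeq2 size factors the median of members was -0.98, beside -0.03 for all tested features, with 9 lower members. With library totals in place of TMM it was -0.32, beside 0.52, with 3 lower members and 1 higher, Rps27rt. The calls over all features were split 397 higher and 113 lower with TMM, 258 and 215 with DESeq2 size factors, and 446 and 32 with library totals. The median of members lay below that of all features by 0.97 with TMM, by 0.96 with DESeq2 size factors and by 0.84 with library totals.

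**Figure D2:**
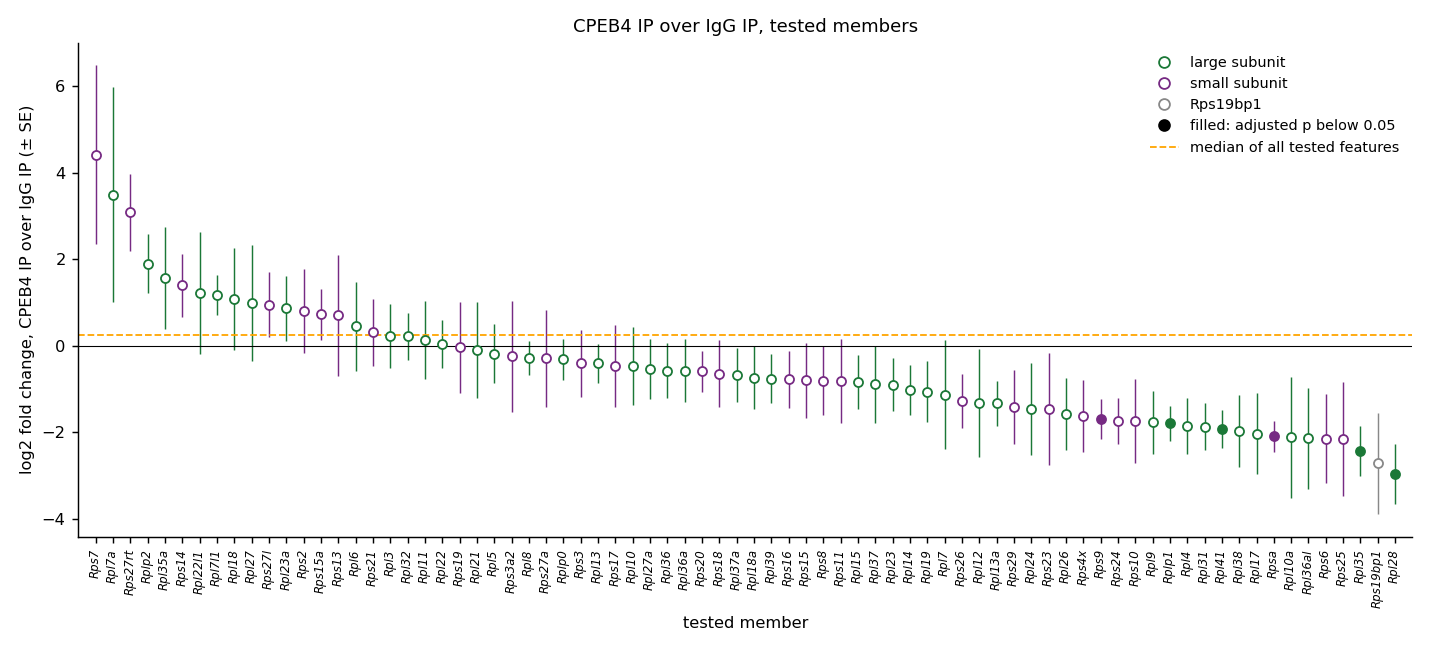
Log2 fold change of CPEB4 IP over IgG IP for 76 of the 77 tested members with its SE, ordered from the highest to the lowest, green for large and purple for small subunit names and grey for Rps19bp1. Filled points are the 6 members past an adjusted p of 0.05, all below 0, and the dashed line is the median of all tested features (0.24). Rps7 and Rpl7a, at the left, had no IgG IP count, so the size of their values is set by the prior count.

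A few members stood the other way round without passing the test. In Rplp2, the partner of Rplp1 in the stalk (277 bases, mm10 chromosome 7, 141451309 to 141451585), CPM were 171, 243, 96.5 and 96.5 in CPEB4 IP, against 68.3, 55.2, 27.4 and 21.2 in IgG IP. All CPEB4 IP libraries lay above all IgG IP libraries. By edgeR's quasi-likelihood test the log2 fold change was 1.89 with an SE of 0.68 (adjusted p = 0.113), and with the replicate number as a block it was 1.92 (adjusted p = 0.0149). Rplp0, the base of the same stalk, stood at 17.5 ± 2.53 CPM in CPEB4 IP, against 20.7 ± 8.73 CPM in IgG IP (SD, n = 4 each). Its log2 fold change was -0.31 with an SE of 0.47 (adjusted p = 0.732 by edgeR's quasi-likelihood test). The 3 stalk genes thus had values on both sides of 0. The sign of Rplp0 turned with library totals in place of TMM.

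Rps27rt, annotated as a retrogene copy of Rps27 (54 bases, mm10 chromosome 9, 114982399 to 114982452), had 68.2, 49.6, 51.1 and 46.4 CPM in CPEB4 IP, against 12.4, 7.89, 4.56 and 3.03 CPM in IgG IP. The groups did not overlap, and the IgG IP side consisted of 2, 1, 1 and 1 counts. The log2 fold change was 3.08 with an SE of 0.89 (adjusted p = 0.0527), and 3.25 with the replicate block (adjusted p = 0.0192), by edgeR's quasi-likelihood test. The ratio of summed counts per scaled library was 9.06, with an exact 95% interval of 3.83 to 28.1. No feature bore the symbol Rps27 itself, so reads of the parent gene may have been counted at this copy. How reads that fit both were assigned is not given in the sources used here. Rps27rt was picked out after its values were seen.

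Rpl7l1, a paralog of Rpl7 (1830 bases, mm10 chromosome 17, 46773907 to 46775736), had 89.1, 128, 65.1 and 79.5 CPM in CPEB4 IP, against 24.8, 39.5, 41.0 and 51.5 CPM in IgG IP. The groups did not overlap, with a log2 fold change of 1.17 and an SE of 0.45 (adjusted p = 0.14 by edgeR's quasi-likelihood test). Rps7, a small subunit protein, had 5, 5, 2 and 2 counts in CPEB4 IP and none in IgG IP, which is below the floor of 3 counts per library and gives no fold. Rplp2, Rps27rt, Rpl7l1 and Rps7 were the 4 tested members whose CPEB4 IP libraries all lay above IgG IP, where the background of such features was 23.2%. All CPEB4 IP libraries lay below IgG IP in 10 members, where the background was 5.91%. With the replicate number as a block, 2 members were higher (Rplp2 and Rps27rt) and 9 lower, the 7 above with Rpl31 and Rps24 added, where 6.01% of all features were higher and 1.73% lower under that block.

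**Figure D3:**
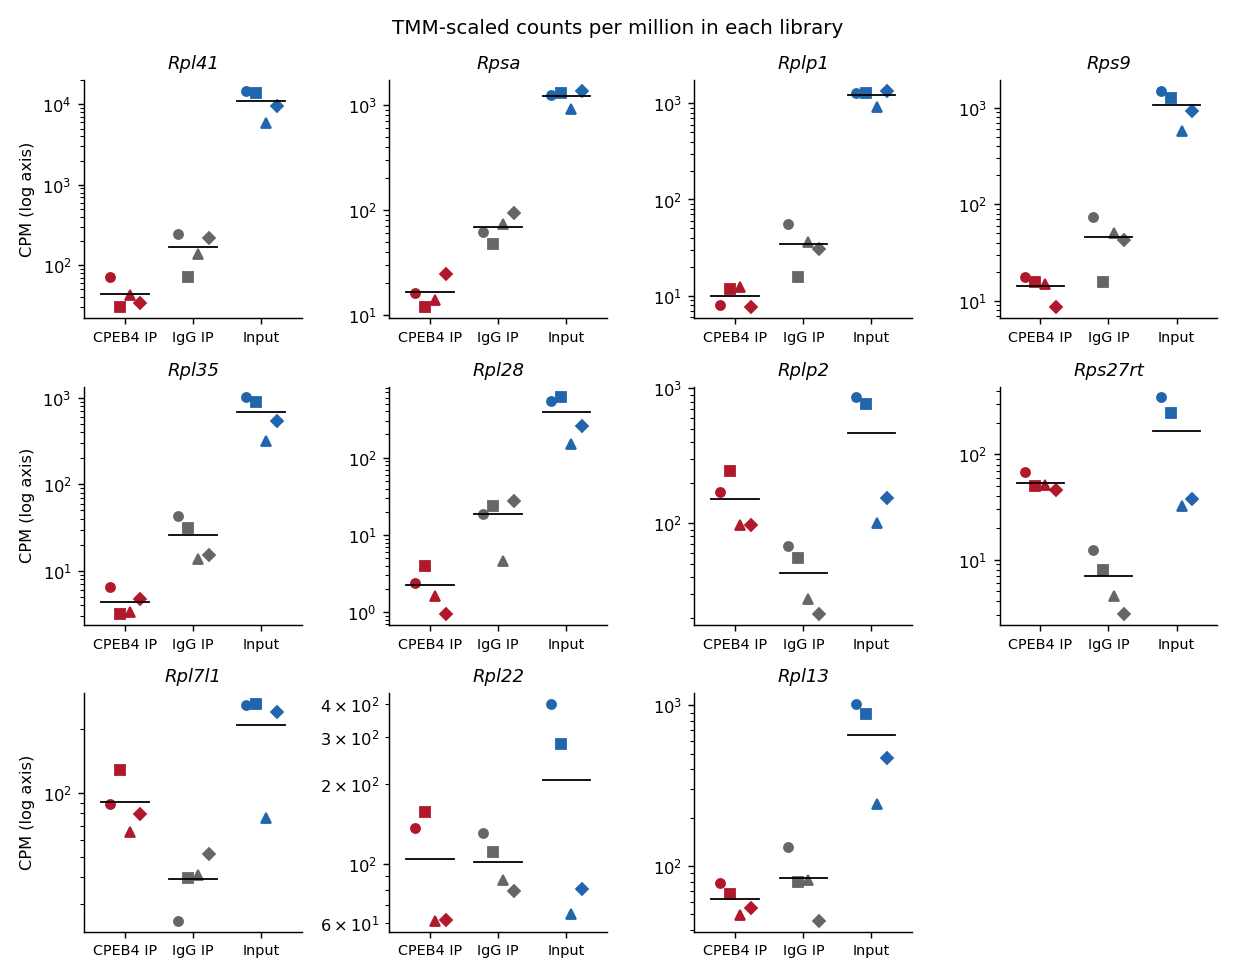
CPM of 11 members in each library on log axes, with CPEB4 IP in red, IgG IP in grey and Input in blue, marker shapes for replicates 1 (circle), 2 (square), 3 (triangle) and 4 (diamond), and the group mean as a line. The first 6 panels are members that passed the test as lower in CPEB4 IP against IgG IP. In Rplp2, Rps27rt and Rpl7l1 all CPEB4 IP libraries lay above IgG IP, and Rpl22 and Rpl13 had groups of precipitates that overlapped.

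The interaction term of the authors' deposited table, which sets both precipitates against Input, was called lower for 13 members and higher for 1, Rps27rt, out of 85 with a value. These calls of the authors' deposited table go with an unadjusted p under 0.05, with adjusted p of up to 0.255, and over the whole table they made 3.28% of 19051 features lower and 2.27% higher. The 7 members lower here were all among the 13. An adjusted p was given for 62 members, and the 7 with an adjusted p under 0.05 in the authors' deposited table were the same genes, where 3.74% of 4707 features with an adjusted p were lower and 2.76% higher. Both fits rest on the same 12 libraries, so the shared genes are no independent support. The median log2 value for this interaction in the authors' deposited table was -1.10 for members and -0.95 for all features with a value.

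Against Input, nearly every tested member was lower in CPEB4 IP. By edgeR's quasi-likelihood test (Benjamini-Hochberg adjusted) 74 of 77 were lower and none higher, where the background was 26.3% of all tested features lower and 27.6% higher. The median log2 fold change was -4.42, a 21.4-fold lower level, beside 0.29 for all tested features. Of the 77, 44 reached the minimum in fewer than 4 precipitate libraries and passed the filter on low counts only with the help of Input libraries. For these the filter favoured lower values in the precipitates. Among the 33 members that reached the minimum in at least 4 precipitate libraries, 30 were lower, with a median of -3.90. In 26 of these 33 all CPEB4 IP libraries lay below all Input libraries (background 24.2%), and in none did all lie above (background 30.9%).

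The IgG precipitate, compared with the same Input libraries, had 69 of 77 members lower and none higher (background 23.9% lower and 17.5% higher). Its median log2 fold change was -4.38, a 20.9-fold lower level, beside -0.07 for all tested features. Among the 33 members with the minimum in precipitates, 29 were lower, with a median of -3.98. In 26 of these 33 all IgG IP libraries lay below all Input libraries (background 22.7%), and in none above (background 15.9%). Since both comparisons share the Input libraries, their values stand side by side and are no independent pair.

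Rpl41 averaged 44.4 ± 18.7 CPM in CPEB4 IP and 166 ± 77.6 in IgG IP, against 10964 ± 4075 CPM in Input (SD, n = 4). Its log2 fold change over Input was -7.94 for CPEB4 IP (SE 0.55, adjusted p = 2.28e-08) and -6.03 for IgG IP (SE 0.51, adjusted p = 4.3e-07) by edgeR's quasi-likelihood test.

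Rpl32, a large subunit protein and a common reference gene, was also low in both precipitates. It had 44.1, 35.4, 19.8 and 20.8 CPM in CPEB4 IP and 31.0, 15.8, 27.4 and 27.3 CPM in IgG IP, against 4014, 3959.6, 927 and 1358 CPM in Input. The precipitates overlapped, and both lay below Input. The log2 fold change over Input was -6.41 for CPEB4 IP (SE 0.56, adjusted p = 1.95e-07) and -6.62 for IgG IP (SE 0.59, adjusted p = 8.24e-07) by edgeR's quasi-likelihood test. Between the precipitates it was 0.22 (SE 0.55, adjusted p = 0.85), and its sign turned with DESeq2 size factors in place of TMM.

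Rpl39, of the peptide tunnel, had a log2 fold change over Input of -6.12 in CPEB4 IP and -5.36 in IgG IP. Rps15 and Rps18, of the small subunit head, had -7.77 and -6.88 in CPEB4 IP and -6.98 and -6.25 in IgG IP. Rplp0 and Rpl37a had -5.54 and -5.58 in CPEB4 IP and -5.23 and -4.91 in IgG IP. Smaller falls were measured for Rpl8, which lies near the peptidyl transferase centre, and for Rpl13, at -4.25 and -3.39 in CPEB4 IP and -3.98 and -2.98 in IgG IP. Each of these 7 members passed edgeR's quasi-likelihood test against Input in both precipitates, with adjusted p of at most 0.000121.

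Only 3 tested members did not pass the test as lower than Input in either precipitate, Rpl22, Rpl5 and Rpl10a, and they were looked at for that reason. Rpl22, a large subunit protein with a close paralog, had 136, 157, 61.0 and 61.5 CPM in CPEB4 IP, against 398, 283, 64.8 and 80.8 CPM in Input. The groups overlapped because Input replicates 3 and 4 were low, and the log2 fold change was -0.99 with an SE of 0.53 (adjusted p = 0.127 by edgeR's quasi-likelihood test). In IgG IP Rpl22 had 102 ± 23.4 CPM (SD, n = 4), a log2 fold change of -1.04 over Input (SE 0.56, adjusted p = 0.15 by edgeR's quasi-likelihood test). The authors' deposited table did call Rpl22 lower in CPEB4 IP than in Input, at -1.06 (adjusted p = 0.0157 by DESeq2's Wald test). Rpl5 and Rpl10a were not called there. Rpl5, which with Rpl11 and 5S rRNA can bind MDM2, had 19.3, 22.8, 22.3 and 18.9 CPM in CPEB4 IP, against 113, 57.3, 9.11 and 28.7 CPM in Input. Its log2 fold change was -1.32 (SE 0.62, adjusted p = 0.0847), and its feature overlaps one of Fam69a on the opposite strand. Rpl10a, of the L1 stalk, had 24 counts in CPEB4 IP, 18 in IgG IP and 72 in Input, with none in Input replicates 3 and 4. Rpl10a was called higher than Input in both precipitates when replicates 3 and 4 were fitted alone, where 19.9% (CPEB4 IP) and 13.8% (IgG IP) of all features were.

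Rplp2 and Rps27rt were also less depleted in CPEB4 IP than most members. Rplp2 had a log2 fold change over Input of -1.63 in CPEB4 IP (SE 0.60, adjusted p = 0.0312) and of -3.52 in IgG IP (SE 0.70, adjusted p = 0.000837) by edgeR's quasi-likelihood test. Rps27rt had -1.63 in CPEB4 IP (SE 0.63, adjusted p = 0.0382, and -0.99 with adjusted p = 0.143 under the replicate block) and -4.71 in IgG IP (SE 0.88, adjusted p = 0.000508). In both genes CPEB4 IP overlapped Input, since Input replicates 1 and 2 (858 and 767 CPM for Rplp2, 348 and 249 CPM for Rps27rt) stood far above replicates 3 and 4.

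Members that passed against Input in CPEB4 IP but not in IgG IP were Rpl12, Rpl15, Rpl17, Rps25 and Rps19bp1, and 69 passed in both precipitates. Between the precipitates none of these 5 passed edgeR's quasi-likelihood test, so they are not shown to differ there. With the replicate block Rpl12 no longer passed against Input in CPEB4 IP either (log2 fold change -3.00, adjusted p = 0.0536).

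Large and small subunit names were set side by side, with no test of their difference. In CPEB4 IP over IgG IP the median log2 fold change was -0.70 for 46 tested large subunit names, of which 4 were lower, and -0.71 for 30 small subunit names, of which 3 were lower. In CPEB4 IP over Input the medians were -4.4 and -4.52, with 43 of 46 and 30 of 30 lower. In IgG IP over Input they were -4.22 and -4.50, with 40 of 46 and 29 of 30 lower. Of all tested features 1.3%, 26.3% and 23.9% were lower in the 3 comparisons, in this order. Of the 77 tested members, 44 had passed the filter only with the help of Input libraries, which favours values lower than Input. The medians of the subunits differed by 0.01, 0.12 and 0.28 (large minus small), and the difference changed sign when single replicates were left out.

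**Figure D4:**
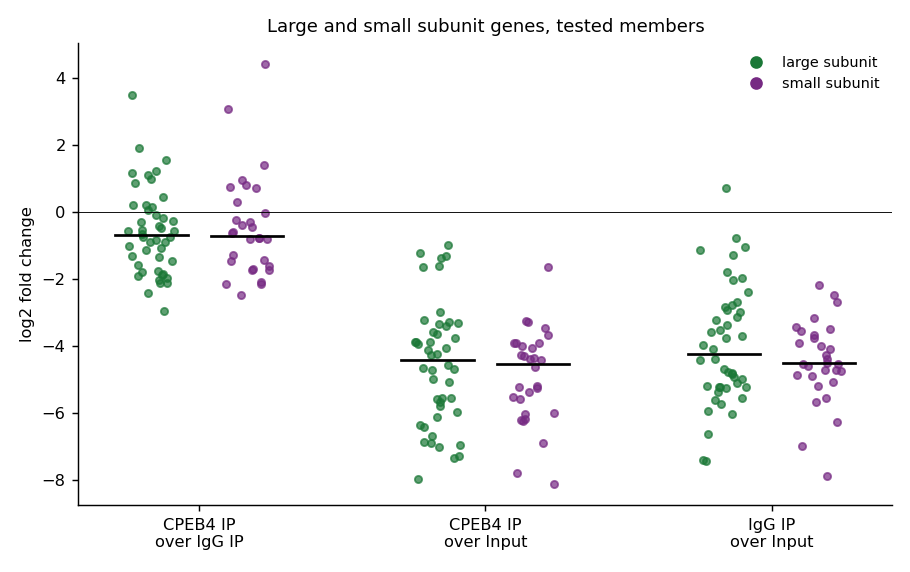
Log2 fold changes of the tested members in the 3 comparisons, with 46 large subunit names in green and 30 small subunit names in purple, shifted sideways at random for display, and medians as lines. The medians of the subunits were at most 0.28 apart in each comparison.

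Counted reads of the 2 subunits were in a ratio, large over small, of 2.55 to 3.24 in CPEB4 IP, 2.37 to 2.89 in IgG IP and 2.85 to 3.10 in Input, so the groups overlapped. Rpl41 alone made up 2.28% to 5.05% of member counts in CPEB4 IP, 5.26% to 14.4% in IgG IP and 27.3% to 35.2% in Input. Without Rpl41 the ratio was 2.38 to 3.15 in CPEB4 IP, 2.03 to 2.48 in IgG IP and 1.59 to 1.86 in Input, and all precipitate libraries lay above all Input libraries. These are counts and not levels per length. Leaving Rpl41 out was chosen after its counts were seen.

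Most members had very short 3′ UTR features. The median width was 91 bases (4 to 4722), beside 1344 bases for all tested features, and 46 of 87 members (52.9%) were under 100 bases, against 2.40% of tested features. Large subunit features had a median of 118.5 bases and small subunit features 57.5 bases. Short features, members included, were low in the precipitates. Of 208 tested features under 100 bases, 88.5% were lower in CPEB4 IP than in Input, with a median log2 fold change of -4.62. All 41 tested members of that width, which are among the 208, were lower, with a median of -5.06. Of the 77 tested members, 44 had passed the filter on low counts only with the help of Input libraries. Such features are favoured to be lower in the precipitates, and how many each width class holds was not counted.

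Members with wide features can be set beside the many other genes of such width. Of 18 tested members with 500 bases or more, 16 were lower in CPEB4 IP than in Input, against 16.3% of 6964 features of that width, and the medians were -3.60 and 0.77. How many of these 18 had passed the filter only with the help of Input libraries was not counted, and such members are favoured to be lower than Input. In IgG IP over Input 14 of the 18 were lower, against 13.5%, with medians of -3.00 and 0.42. In CPEB4 IP over IgG IP 2 of the 18 were lower, Rpsa and Rps9, against 0.862%, with medians of -0.66 and 0.28. In the class from 200 bases to under 500 the medians were -4.00 for 13 members and -2.26 for 1138 features in CPEB4 IP over Input. From 100 bases to under 200 they were nearly the same, -4.25 for 5 members and -4.15 for 370 features, of which 81.4% were lower.

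Rps15a, a small subunit protein with the widest feature (4722 bases), had 26.5, 24.4, 19.0 and 15.1 CPM in CPEB4 IP, against 289, 271, 148 and 112 CPM in Input. The groups did not overlap, at a log2 fold change of -3.26 with an SE of 0.49 (adjusted p = 4.56e-05 by edgeR's quasi-likelihood test). Rps20, of the small subunit head (3167 bases), had -3.27 (SE 0.45, adjusted p = 1.69e-05) by the same test, and Rpl7l1 (1830 bases) had -1.22 (SE 0.41, adjusted p = 0.0195). The narrowest tested features belonged to Rps25 (4 bases), Rpl22l1 (21 bases) and Rpl36 (30 bases), with -4.63, -3.74 and -5.79. Few counts stood behind the first 2 of these in CPEB4 IP, 4 and 15 over 4 libraries.

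Across the 77 tested members, width and log2 fold change had a Spearman correlation of 0.36 for CPEB4 IP over Input and 0.38 for IgG IP over Input, beside 0.48 and 0.59 across all tested features. For CPEB4 IP over IgG IP it was 0.01, beside -0.01. These are descriptions across genes, which share libraries and are no independent replicates, and width also sets how many reads a feature can collect.

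**Figure D5:**
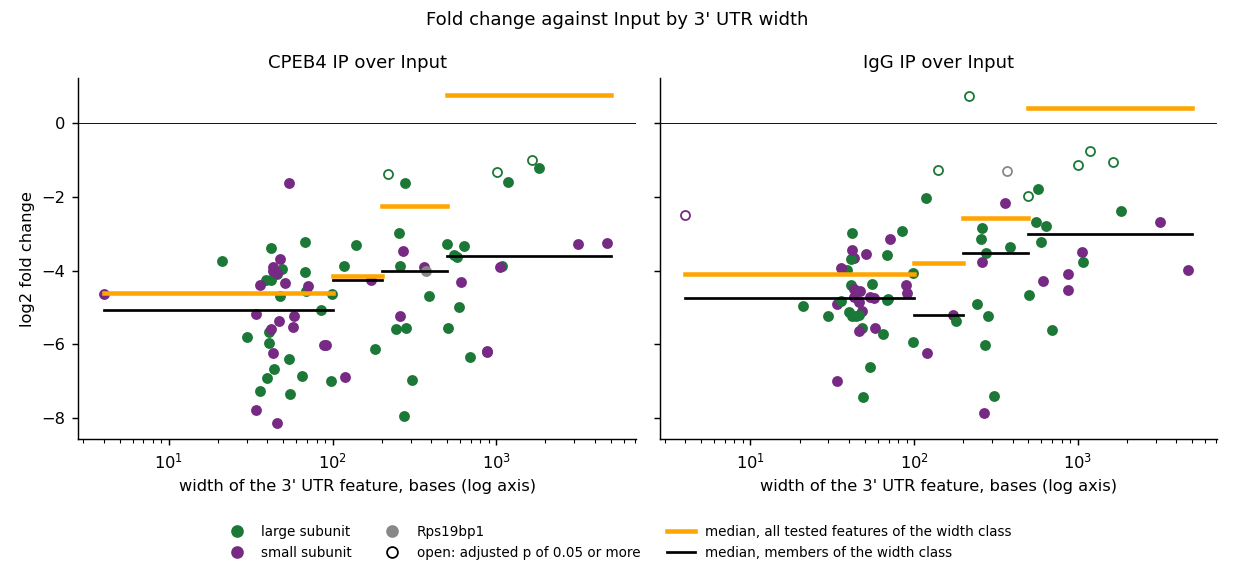
Log2 fold change over Input of the 77 tested members against the width of the 3′ UTR feature (log axis), for CPEB4 IP (left) and IgG IP (right), green for large and purple for small subunit names and grey for Rps19bp1, with open points for an adjusted p of 0.05 or more. Black lines are medians of members and orange lines medians of all tested features in 4 width classes. At 500 bases or more, members (-3.60 and -3.00) lay below all features (0.77 and 0.42), and under 100 bases both were low.

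Paralogs and the name that is no ribosomal protein were mostly thinly counted. Rps27l, a p53-induced paralog of Rps27, had 59 counts in CPEB4 IP, 5 in IgG IP and 1187 in Input, with log2 fold changes of 0.94 over IgG IP (SE 0.75, adjusted p = 0.501) and -4.25 over Input (SE 0.55, adjusted p = 1.02e-05) by edgeR's quasi-likelihood test. Rpl22l1 had 15, 1 and 212 counts and Rpl36al 5, 5 and 201 counts in the same groups, too few in the precipitates to compare them. Rpl39l and Rpl3l, known from testis and from striated muscle, had 14 and 11 counts in Input, each in 1 library, and none in the precipitates. Rps19bp1 had 9 counts in CPEB4 IP, 12 in IgG IP and 166 in Input, and its log2 fold change over Input was -4.00 in CPEB4 IP (SE 1.12, adjusted p = 0.00657) and -1.28 in IgG IP (SE 1.06, adjusted p = 0.358). For paralogs and copies such as Rps27rt, Rps3a1, Rps3a2, Rps3a3 and Rpl36al, reads may have come from the parent gene or been shared with it. Their values are therefore uncertain.

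Other mRNAs known to carry a TOP motif were called in both directions. The table held 26 such genes, of which 23 were tested, and in CPEB4 IP over IgG IP 1 was higher and 6 were lower, with a median of -0.66 (background 4.57% higher and 1.3% lower, median 0.24). The higher one was Pabpc1, the cytoplasmic poly(A)-binding protein, at a log2 fold change of 2.84 with an SE of 0.32 (adjusted p = 0.000327 by edgeR's quasi-likelihood test). The lower ones were the elongation factors Eef2 (-1.86) and Eef1d (-1.97), the initiation factor subunit Eif3l (-2.08), Tpt1 (-1.86), Fau (-2.24), which encodes the small subunit protein Rps30 fused to a ubiquitin-like protein, and Vim (-1.73), the vimentin of fibroblasts and preadipocytes. Over Input, 5 were higher in CPEB4 IP (Pabpc1, Eif4b, Eif4a2, Eif2s3x and Nap1l1) and 17 lower, with a median of -4.20 (background 27.6% and 26.3%), and in IgG IP 3 were higher and 18 lower, with a median of -3.51 (background 17.5% and 23.9%). Rack1, a small subunit component, was lower than Input in CPEB4 IP, at -4.86 on the log2 scale. It did not pass the test between the precipitates, and its feature overlaps one of Trim41 on the opposite strand.

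Genes of ribosome assembly and of TOP control were counted in the same way. Of 32 tested assembly genes, 3 were higher and 3 were lower in CPEB4 IP against IgG IP, with a median of 0.11 (background 4.57% and 1.3%, median 0.24). Higher were Dkc1 (1.84), the pseudouridine synthase of small nucleolar particles, whose feature overlaps one of Mpp1 on the opposite strand, Sbds (2.08), which helps to release Eif6 from the large subunit, and Mrto4, which had 73 counts in CPEB4 IP and 1 in IgG IP (ratio 12.8, exact 95% interval 2.22 to 511). Lower were the nucleolin gene Ncl (-1.34), Bop1 (-2.63) and Rrp1 (-2.59). Over Input 5 assembly genes were higher and 18 lower in CPEB4 IP (median -2.04, background 27.6% and 26.3%), and 2 were higher and 16 lower in IgG IP (median -2.01, background 17.5% and 23.9%). The list drawn up for the binding and control of TOP mRNAs had 18 tested genes, not all of which are known for such a role. Of these, 1 was higher and none lower in CPEB4 IP against IgG IP (median 0.16), the La-related protein gene Larp4 (1.74, SE 0.33, adjusted p = 0.00653 by edgeR's quasi-likelihood test). Over Input 6 were higher and 4 lower in CPEB4 IP, and 5 were higher and 3 lower in IgG IP, to be read beside the same backgrounds. Larp1, whose protein binds the TOP motif, was higher than Input by 1.93 in CPEB4 IP (SE 0.35, adjusted p = 0.000247) and by 0.93 in IgG IP (SE 0.35, adjusted p = 0.0415). Its value between the precipitates was 1.00 (SE 0.35, adjusted p = 0.0988). Eif4ebp1, a translation repressor under mTOR, was lower than Input, at -4.77 in CPEB4 IP and -4.07 in IgG IP, whereas its paralog Eif4ebp2 was higher, at 5.44 and 5.14.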

How the data were processed

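RNA of 12 libraries was analysed. The authors deposited 1 table of raw read counts per 3′ UTR (mm10), log2 normalised counts with their group means, and their DESeq2 fold changes, Wald scores, p-values and other columns such as feature width. The submitters' processing notes name featureCounts, DESeq2 1.22.1, Bowtie2 2.2.2 and Bowtie 1.2.3 among their tools. The order of steps, the strand setting, the annotation release and the treatment of reads with several matches are not given in the sources used here. Groups and replicate numbers came from the titles.

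edgeR 4.0.16 (R 4.3.3) was run on the deposited counts after filterByExpr (minimum count 10, minimum total 15), which kept 8680 features. All 12 libraries were fitted in 1 quasi-likelihood model with TMM scaling and a prior count of 0.125, and p-values were Benjamini-Hochberg adjusted over the 8680 features for each of 3 comparisons. The script was tested on simulated data. SE is the size of the log2 fold change divided by the square root of F. DESeq2 1.42.0, other scalings, filters, blocks and left-out libraries were alternatives. Every symbol had 1 feature.

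Named members were those past the adjusted p of 0.05 (the 15 with most counts where more passed), the 10 with most counts, paralogs ending in l or l1 and Rps19bp1, the 3 widest and 3 narrowest, and the stalk genes. Of the other lists, genes past the test were named. The members and lists were chosen with earlier results of these data known. Same-numbered libraries deviated together, with correlations of 0.148 to 0.290 between CPEB4 IP and IgG IP and 0.183 to 0.263 between CPEB4 IP and Input. All were above 0.1, so the numbers were taken to pair these groups where values are compared within a replicate number. The main fit used no pairing, and the replicate number entered as a block only among the alternatives. Libraries of other numbers in the same set of 2 correlated about as highly (0.0988 to 0.229 and 0.123 to 0.268), and those of different sets at -0.291 to -0.120, so the values show the sets at least as much as the numbers. Between IgG IP and Input they were 0.0524 to 0.147. Start site sequences were RefSeq's (GRCm38.p6), for 64 members found by symbol. A few genes are not reported here by name, although the counts and medians include them.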

Additional observations from a re-analysis of the deposited data

Results flagged for a closer look

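The 93 sets of 4 libraries held the CPM of named members, the share of counts on members and the subunit ratio. In 6 sets, 1 library stood apart from the other 3 by more than Dixon's 95% limit on the gap over the whole range. Chance alone gives about 1 in 20, but this rate does not hold for sets with few counts. A set without counts could not be flagged, and one with counts in 1 library always was. Rpl22l1 in CPEB4 IP was high in replicate 3 (7.42 CPM, gap 0.945 of the range), and in IgG IP its single count lay in replicate 1 (gap 1). Rpl37a in IgG IP was high in replicate 1 (55.8 CPM, gap 0.893). Rpl7l1 in Input was low in replicate 3 (75.9 CPM, gap 0.886). The counts of Rpl39l in Input all lay in replicate 3 (14.2 CPM, gap 1), and those of Rpl3l all in replicate 4 (7.16 CPM, gap 1). None of these members was among the 7 called lower between the precipitates, and the cause was not tested.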

How the results depend on the processing

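No member was called higher than Input in either precipitate under any alternative except replicates 3 and 4 alone (1 in each, Rpl10a). That fit called 19.9% of all features higher than Input in CPEB4 IP and 13.8% in IgG IP. In CPEB4 IP over IgG IP the number higher and lower, 0 and 7, became 1 and 3 with library totals, 2 and 9 without a filter, 3 and 14 with only the 2 groups in the fit, 1 and 11 with DESeq2, 0 and 11 at a mean count of at least 50 and 0 and 0 with replicates 3 and 4 alone. It was 2 and 9 with the replicate block, which kept the 7 lower members, and 2 and 10 with replicates 1 and 2 against 3 and 4 as a block. Over all features 1.3% were lower, and in the same order of settings 0.369%, 0.441%, 9.0%, 5.16%, 11.8%, 0%, 1.73% and 2.53%. More or fewer members thus went with more or fewer lower features in general, except without a filter (9 members). Higher features made up 4.57%, and in that order 5.14%, 2.55%, 17.1%, 5.15%, 9.26%, 0%, 6.01% and 7.62%. Over Input the replicate block left 72 lower members in CPEB4 IP (Rpl12 and Rps27rt lost) and the same 69 in IgG IP. Of all features 24.9% and 23.4% were lower under that block. Leaving out replicates or libraries gave 0 to 1 higher and 0 to 11 lower in CPEB4 IP over IgG IP. Over all features 0.023% to 7.42% were higher and 0% to 3.71% lower in these fits. Lower members numbered 68 to 76 for CPEB4 IP over Input and 64 to 76 for IgG IP over Input. The share of all features lower was 22.0% to 32.5% and 18.9% to 31.0%. Thinning to the smallest library left 36 members tested, of which 36 and 35 were lower than Input, where 33.8% and 33.2% of 2190 features were. The filter on low counts was applied anew to the thinned counts, so members could pass it through Input alone. That favours values lower than Input, and how many members passed so was not counted.

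The median of members in CPEB4 IP over IgG IP was -0.32 with library totals, -1.2 at a mean count of at least 50, -1.15 with replicates 1 and 2 alone and -1.59 after thinning, and -1.07 to -0.41 when libraries were left out. Over Input in CPEB4 IP it was -6.08 at a mean count of at least 50, -5.49 with replicates 1 and 2 alone and -6.47 after thinning, and -5.18 to -4.13 when libraries were left out. The width correlation in CPEB4 IP over IgG IP was -0.029 without a filter, 0.12 at a mean count of at least 50 and -0.053 to 0.051 when libraries were left out. Over Input in CPEB4 IP it was 0.30 without a filter, 0.27 with replicates 1 and 2 alone, 0.31 after thinning and 0.30 to 0.38 when libraries were left out. Large minus small subunit was 0.46 in CPEB4 IP over IgG IP with replicates 3 and 4 alone and -0.31 in CPEB4 IP over Input at a mean count of at least 50.

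Signs turned in 19 of 2148 recomputed values of named genes. That total includes the comparisons with Input, where most values lay far below 0. It also includes a fit with the features of a gene summed, which equals the main fit because every symbol had 1 feature. In CPEB4 IP over IgG IP Rpl32 was -0.051 with DESeq2 size factors and with DESeq2, -0.21 at a mean count of at least 50, -0.43 with replicates 3 and 4 alone, -0.10 after thinning and -0.16 to 0.38 when libraries were left out, below 0 without replicate 1, replicate 2 or CPEB4 IP replicate 1 or 2. Rplp0 was 0.11 with library totals. With replicates 1 and 2 alone Rps27l was -0.46, Rps15 0.23, Rpl36al 1.76 and Rpl22l1 -1.37, and with replicates 3 and 4 alone Rps25 was 2.87 and Rps19bp1 in IgG IP over Input 0.88. When libraries were left out, Rpl22l1 ran over -0.19 (without replicate 3) to 4.63, Rps15 over -1.28 to 0.12 (without replicate 4) and Rpl39 over -1.15 to 0.042 (without IgG IP replicate 1). None of these was called, and the cause was not tested. Depth limits the IgG IP side, where 17 tested members had 1 to 3 counts and 2 had none.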

Other observations

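Input itself differed between the replicate sets. All 77 tested members had a higher mean CPM in Input replicates 1 and 2 than in replicates 3 and 4, by a median of 1.48 on the log2 scale, beside -0.04 for all tested features. Over the 76 members with counts in both sets the difference ran from 0.16 (Rpsa) and 0.18 (Rplp1) to 2.67 (Rplp2) and 3.09 (Rps27rt), and Rpl10a had no count in replicates 3 and 4. The library numbers of the 2 sets are separate, and which step of culture or preparation differed was not tested. Members were lower than Input in both sets: the median log2 ratio of CPEB4 IP over Input was -5.08 in replicates 1 and 2 and -3.85 in replicates 3 and 4, and that of IgG IP over Input was -4.61 and -3.78.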
